A study of Mus musculus with 20 samples.

Results

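Binding of Sox17EK and of Oct4 (Pou5f1) was compared within 1 cell line, the KH2 mouse embryonic stem (ES) cell line that expresses Sox17EK. The comparison used 4 peak lists of chromatin immunoprecipitation and sequencing (ChIP-seq), Sox17EK replicates A and B and Oct4 replicates A and B of the same line. These are 4 of the 18 lists analysed from a series of 20 samples. A site was counted for a factor where a peak of replicate A and a peak of replicate B were each other's nearest by midpoint and lay within 200 bp. That gave 9871 Sox17EK sites and 33280 Oct4 sites. A joint site had a Sox17EK site and an Oct4 site that were each other's nearest and lay within 200 bp, and 6302 sites met this rule. A site was called alone where no peak of the other factor, in either replicate, overlapped it or lay within 200 bp, and sites between these classes were called intermediate.

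The cells were KH2 ES cells kept in serum with leukemia inhibitory factor and given doxycycline at 1 µg/ml, which induced V5-tagged Sox17EK. Sox17EK is Sox17 with a glutamate changed to lysine, the residue that Sox2 has. The other ES lines were KH2 cells given the same treatment that expressed V5-tagged Sox2, Sox17 or Sox2KE, the reverse exchange in Sox2. The F9 embryonal carcinoma line was sampled without treatment and with retinoic acid (RA) at 1 µM. The labels name no deletion of a native Sox or Oct4 gene in any line, and no number of clones per line. The lists hold no expression values, so the labelled cell type was not checked against markers.

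Sox proteins bind DNA through an HMG box and Oct4 through a POU domain, and the factors can sit side by side on composite DNA elements. In ES cells Sox2 and Oct4 share such elements near genes of pluripotency, whereas Sox17 is known for its part in primitive endoderm. The residue exchanged in Sox17EK lies on the face of the HMG box that meets Oct4, and the exchange is known to let Sox17 pair with Oct4 on the element that Sox2 uses.

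The Sox17EK lists held 28601 peaks in replicate A and 36700 in replicate B, and the Oct4 lists 68294 and 46709. The median peak width was 453 and 312 bp for Sox17EK and 690 and 666 bp for Oct4. Each peak carries the authors' score, read as 10 times the negative log10 of p, with a lowest value of 50 in most of the 18 lists. Read depth was unknown, and scores served only to rank peaks within a list and to describe named sites. The 9871 Sox17EK sites were 34.5% of the peaks of replicate A and 26.9% of those of replicate B. The 33280 Oct4 sites were 48.7% and 71.2% of their lists. Sites came from the stronger peaks. In Sox17EK replicate A the median score was 180 at sites and 72.6 at the other peaks, and in Oct4 replicate A it was 289 and 96.4.

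Oct4 lay at most Sox17EK sites, and in both directions the shares were well above those of moved sites. The joint shares divide the same 6302 joint sites by 9871 Sox17EK sites and by 33280 Oct4 sites. Their order therefore follows from the site numbers and gives no result of its own. The shares with a peak of either replicate were counted in lists of unequal length, so their order was not interpreted either. Joint sites were 63.8% of the Sox17EK sites (95% exact binomial interval 62.9 to 64.8), against 1.61% for the same sites moved 10 kb to either side. An Oct4 peak of either replicate lay at 98.8% of the Sox17EK sites, against 13.1% for moved sites. In the other direction joint sites were 18.9% of the Oct4 sites (18.5 to 19.4), against 0.478% for moved sites. A Sox17EK peak of either replicate lay at 56.8% of the Oct4 sites, against 7.3% for moved sites. The intervals cover counting of sites only. The Oct4 libraries of ES cells name both the Oct4 and the V5 antibody in their labels, and the Sox17EK libraries V5 alone, so peaks of tagged Sox17EK in the Oct4 lists cannot be told apart from Oct4 peaks.

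The joint share differed between the Sox17EK libraries. Of all peaks of Sox17EK replicate A, 61.3% matched an Oct4 A peak and 57.9% an Oct4 B peak, against 3.26% and 2.28% for moved peaks. Of all peaks of Sox17EK replicate B, 28.8% matched an Oct4 A peak and 27.8% an Oct4 B peak, against 2.77% and 1.92% for moved peaks. Peaks found in 1 Sox17EK replicate carried this gap. Among replicate A peaks that no replicate B peak overlapped, 83.0% of 17565 had an Oct4 peak, with a moved value of 11.4%. Among replicate B peaks that no replicate A peak overlapped, 25.3% of 25255 had one, with a moved value of 7.89%. The median scores of these groups were 71.1 and 72.2, in separate lists of unknown depth. Their median widths were 406 and 301 bp, and the measure counts overlapping peaks. The cause of the gap was not tested. Peaks that overlapped the other replicate had an Oct4 peak in 98.7% of 11036 cases for replicate A and 98.6% of 11445 for replicate B. With Sox17EK replicate A left out, so that every peak of replicate B counted as a site, the joint share of Sox17EK sites was 22.3%. With replicate B left out instead, the joint share of Oct4 sites was 41.3%, and with Oct4 replicate B left out it was 10.2%.

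The strongest joint sites carried scores near the top of all 4 lists. The site at chr7:25664190-25665725 (build mm9, as are all positions here) had Sox17EK scores of 2999 and 1235 in replicates A and B and Oct4 scores of 3100 and 3126. Its Sox17EK peaks were 903 and 625 bp wide, its Oct4 peaks 1536 and 1036 bp, and all of the other 11 ES libraries had a peak there. The site at chr14:68511422-68512673 had Sox17EK scores of 3100 and 1964, and Oct4 scored 3100 in each replicate. Sox2 scored 572 and 322 there and Sox17 106 and 150, while neither Sox2KE library had a peak. The midpoints of Sox17EK and Oct4 lay 39 bp apart. The site at chr11:55759673-55760983 was like it, with Sox17EK scores of 2148 and 1028, Oct4 scores of 3100 and 2909, Sox2 scores of 811 and 864, and no Sox2KE peak.

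The remaining strongest joint sites were at chr2:51926477-51929152, chr14:86794874-86797335, chr8:91794491-91797040, chr5:12872391-12873780, chr16:26961762-26962734 and chr10:85001605-85003225. Their Sox17EK scores ran from 1797 to 2929 in replicate A and from 939 to 1904 in replicate B. Peaks of both Sox2 libraries and all 5 Oct4 libraries of other ES lines lay at each of these 6 sites. Sox2KE scores differed widely among them. At chr10:85001605-85003225 Sox2KE scored 1178 and 2213, and at chr16:26961762-26962734 it had no peak in replicate A and 61.9 in replicate B.

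One of the 10 strongest joint sites was far longer than the rest. It spans 6036 bp at chr17:39979843-39985878, has peaks of 5981 to 6036 bp in the 4 lists and scores 3100 in all 15 ES libraries. All 3 F9 libraries had a peak there too, with scores of 1467 for Oct4, 335 for Oct4 with RA and 1018 for Sox17 with RA. In ES cells the score was thus the same for every protein and line. Many peaks share the score of 3100, with 862 in Oct4 replicate A and 88 in Oct4 replicate B. It is also the highest score of Sox17EK replicate B. Equal scores of 3100 therefore do not show equal signal. Whether this signal depends on the antibody was not tested, since the mock libraries did not enter. The other 9 sites span at most 2676 bp, and chr2:51926477-51929152 is the other one with a peak in every list. All 18 lists had a peak at 302 of the 6302 joint sites (4.79%).

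Over sites in both replicates, the joint share fell further along the Oct4 ranks than along the Sox17EK ranks, but in single libraries this order held for Sox17EK replicate A only. Sites were ranked by their mean rank in the replicates and divided into 10 bins, with bin 1 the strongest. In Oct4 bins 1 to 10 the joint share was 61.2%, 41.0%, 26.5%, 19.7%, 14.0%, 10.5%, 6.58%, 4.72%, 3.46% and 1.59%. The Oct4-alone share went the other way, from 1.71% (57 of 3328 sites) in bin 1 to 80.6% (2683 of 3328) in bin 10. Each of the 4 pairs of 1 Sox17EK and 1 Oct4 library showed this direction, with bin 1 above bin 10 by 51.9 ± 5.62 percentage points (SD, n = 4 pairs that share libraries).

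Along the Sox17EK ranks of sites in both replicates, the joint share was highest in the middle bins and lowest in bin 10. It was 60.7% in bin 1 (57.6 to 63.8), between 67.3% and 71.1% in bins 2 to 7, 62.3% in bin 8, 55.1% in bin 9 and 45.0% in bin 10 (41.8 to 48.2). Bin 1 thus lay below bins 2 to 7 by midpoint. Counting instead the Sox17EK sites whose interval overlaps an Oct4 site gave 74.1% in bin 1, up to 81.6% in bin 5 and 60.2% in bin 10. Among all peaks of single libraries, by contrast, the share of Sox17EK peaks that overlap an Oct4 peak was highest in bin 1 in all 4 library pairs, at 95.6% to 100%. The difference between bins 1 and 10 was 15.7 points for sites, and 45.3 ± 15.1 for the 4 library pairs. For peaks of Sox17EK replicate B it was 50.6 points with Oct4 A and 60.8 with Oct4 B, where the difference along Oct4 ranks was 43.7 and 52.8. For replicate A it was 24.9 and 45.1, against 55.3 and 55.7 along Oct4 ranks. With Sox17EK replicate A left out the difference over sites was 50.4 points, with replicate B left out 37.3, and with Oct4 replicate B left out 4.09. It turned to −3.47 points when peaks under a score of 100 were left out. Of the 119 Sox17EK-alone sites, 76 were in bin 10, 23 in bin 9, 15 in bin 8 and 5 in bins 1 to 7.

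**Figure D1:**
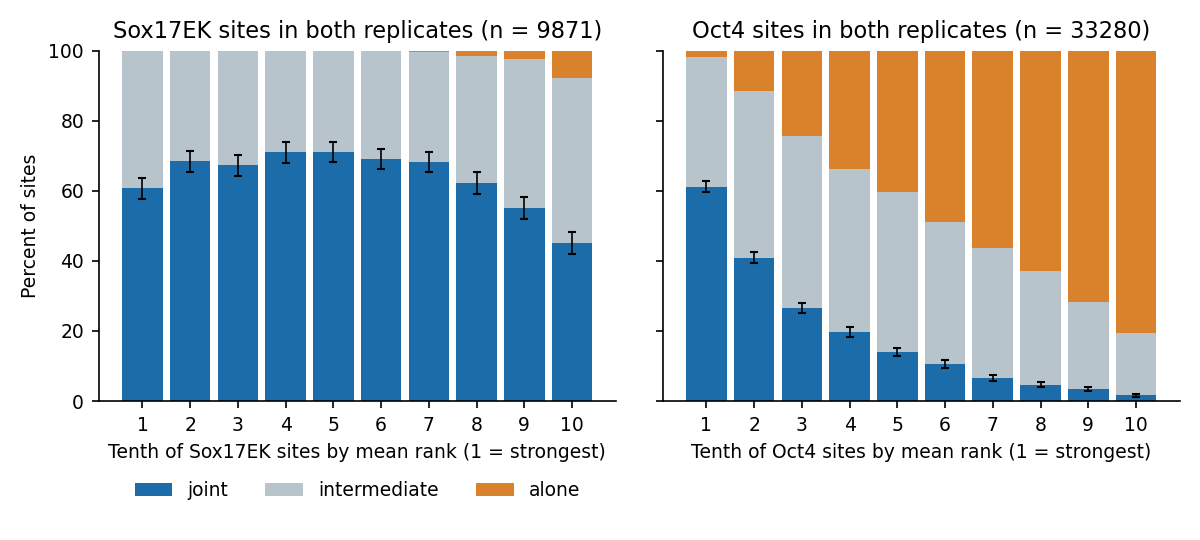
Percent of Sox17EK sites (left, n = 9871) and Oct4 sites (right, n = 33280) that were joint (blue, with exact 95% intervals), intermediate (grey) or alone (orange), by rank bin, bin 1 the strongest. The joint share of Oct4 sites falls from 61.2% to 1.59% over the bins, and that of Sox17EK sites from 60.7% to 45.0%.

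Ranks of the factors went together at joint sites. Of the 600 joint sites in bin 1 of Sox17EK, 582 (97.0%) were also in bin 1 of Oct4. Of all 6302 joint sites, 2038 (32.3%) were in that Oct4 bin. The reverse share is limited by bin size, since bin 1 of Sox17EK holds 988 sites and that of Oct4 3328. Only 600 joint sites are in bin 1 of Sox17EK, and 582 of the 2038 joint sites in bin 1 of Oct4 (28.6%) were among them. Of the 444 joint sites in bin 10 of Sox17EK, 8 (1.80%) were in bin 1 of Oct4. In all, 5408 joint sites (85.8%) lay in the upper 5 Oct4 bins. Spearman's rho of scores over the 6302 joint sites was 0.750 for Sox17EK A with Oct4 A and 0.687 for Sox17EK A with Oct4 B. For Sox17EK B it was 0.519 and 0.532. Between replicates of 1 factor it was 0.608 for Sox17EK and 0.893 for Oct4, so the scores of Sox17EK A followed those of Oct4 more closely than those of Sox17EK B. These values describe sites that share libraries and depth, and carry no test.

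**Figure D2:**
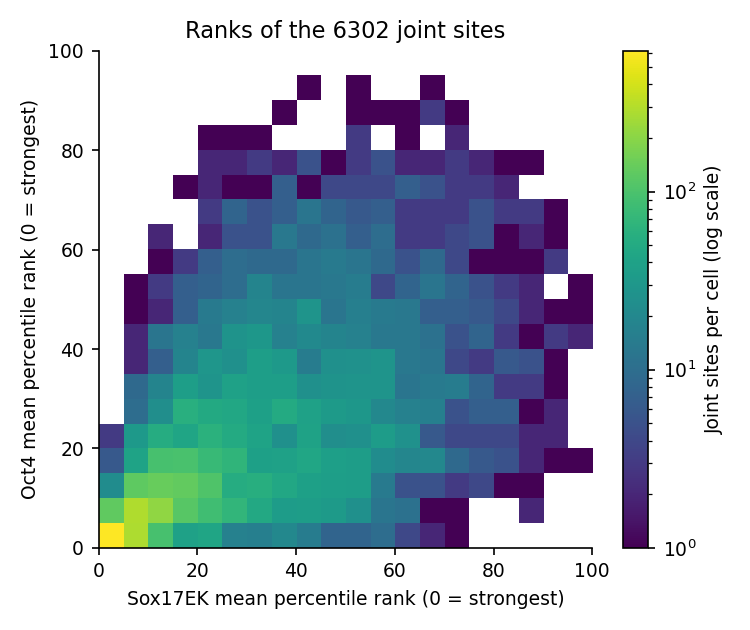
Joint sites (n = 6302) by their mean percentile rank among Sox17EK sites (x axis) and among Oct4 sites (y axis), 0 the strongest, with the number of sites per cell as color on a log scale. The fullest cell is in the corner where both ranks are strongest, and 85.8% of the sites lie in the upper 5 Oct4 bins.

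Among joint sites in bin 1 of Sox17EK, even the most unequal ranks went with Oct4 peaks well above the lowest scores. The site with the largest excess of Sox17EK over Oct4 rank in that bin, at chr9:73873829-73874442, had Sox17EK scores of 558 and 452 and Oct4 scores of 733 and 255. No other ES library had a peak there, and Sox17 in F9 cells with RA scored 61.0. The next were chr19:5361926-5362882, with Sox17EK scores of 646 and 364 and Oct4 scores of 1198 and 253, and chr10:29651954-29652640, with 615 and 407 and with 1113 and 285. In the opposite direction, among joint sites in bin 1 of Oct4, chr1:55143611-55145719 had Sox17EK scores of 59.6 and 51.7 and Oct4 scores of 1214 and 868. Sox2KE replicate B scored 1725 at that site, Sox2KE replicate A 51.6, and neither Sox2 library had a peak. At chr16:31890672-31891663 the Sox17EK scores were 59.0 and 55.5 and the Oct4 scores 1324 and 452, and at chr4:139961783-139963422 they were 72.7 and 58.8 against 2855 and 733. These Sox17EK scores lie just above the lowest score of 50.

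In single libraries, the midpoints of Sox17EK and Oct4 at joint sites lay slightly further apart than those of replicates, but under a looser limit. Of the 9871 Sox17EK sites, 33.2% had an Oct4 site within 50 bp, 51.1% within 100 bp, 63.8% within 200 bp, 73.3% within 500 bp and 76.4% within 1000 bp. Moved sites gave 0.405%, 0.795%, 1.61%, 3.84% and 7.40%. In joint sites the median distance was 47.5 bp (quartiles 22 and 87.2 bp). A site midpoint averages the replicates, so single libraries give larger distances. The 4 pairs of Sox17EK and Oct4 libraries had medians of 57, 55.5, 65.5 and 62 bp (60.0 ± 4.60, SD). At the same sites Sox17EK A and B lay 51 bp apart and Oct4 A and B 49.5 bp. The 200 bp rule limits all of these distances, but unequally. Between A and B of 1 factor it holds for the peaks themselves. Between Sox17EK and Oct4 it holds only for the averaged midpoints, so distances in single libraries can exceed it. The larger medians between the factors therefore give no result of their own. With a limit of 100 bp the median distance in joint sites was 35.8 bp, with 500 bp it was 71 bp, and by overlap 78.5 bp.

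Distance changed little with Sox17EK rank, at 48.9 bp in bin 1 and 51.2 bp in bin 10. With Oct4 rank it was 52.8 bp in bin 1 and 32.8 bp among the 53 joint sites of bin 10. The Sox17EK midpoint lay inside both Oct4 peaks at 6300 of 6302 joint sites, and the Oct4 midpoint inside both Sox17EK peaks at 5832 (92.5%). The lower quartile of Oct4 width at joint sites was 682 bp in replicate A and 619 bp in replicate B. The 200 bp rule thus nearly fixes the first count, and it favors the second. Sites at the 200 bp limit were alike on either side. The 147 pairs at 180 to 200 bp had median Oct4 scores of 1093 and 435, and the 124 pairs at 200 to 220 bp had 1107 and 490.

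**Figure D3:**
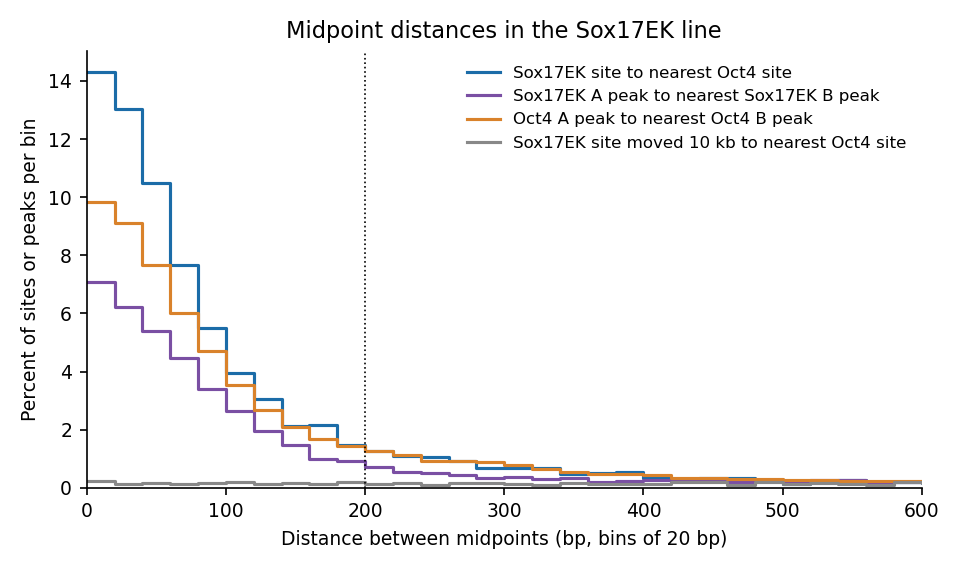
Distance between midpoints (x axis, bp, bins of 20 bp) as percent of sites or peaks per bin (y axis) for Sox17EK sites to the nearest Oct4 site (blue), replicate peaks of Sox17EK (purple) and of Oct4 (orange), and Sox17EK sites moved 10 kb (grey). The blue line is highest at the shortest distances and approaches the grey line by 600 bp, and the dotted line marks the 200 bp limit.

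Oct4 peaks at joint sites were wider than Oct4-alone peaks over all sites, but narrower in the upper bins of Oct4 rank. The median Oct4 width was 824 and 746 bp in replicates A and B at joint sites and 686 and 603 bp at Oct4-alone sites, a ratio of 1.22 ± 0.0254 (SD, n = 2). Joint sites were also the stronger, with median Oct4 scores of 736 and 316 against 174 and 91.4. In Oct4 bin 1 the order was the opposite, with 1007 and 916 bp at joint sites and 1737 and 1599 bp at the 57 Oct4-alone sites. It stayed so in bin 5, at 720 and 645 bp against 868 and 733 bp, and was close to even in bin 8, at 648 and 557 bp against 659 and 562 bp. In bin 10 joint sites were again the wider, at 548 and 505 bp against 525 and 475 bp.

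The 200 bp rule keeps out wide Oct4 peaks whose midpoint is far from that of Sox17EK, which can lower the width of joint sites. With sites and joint sites defined by overlapping intervals instead, the order in bin 1 was the same, at 1297 and 1102 bp for 3453 joint sites and 2000 and 1694 bp for 70 Oct4-alone sites. In bin 5 it was 798 and 673 bp against 966 and 768 bp, and in bin 10 582 and 498 bp against 535 and 479 bp. With the 4 lists cut to equal length, the ratio over all sites was 0.908, the reverse order. Sox17EK peaks measured 532 and 358 bp at joint sites and 381 and 313 bp at the 119 Sox17EK-alone sites, a ratio of 1.27 ± 0.179 (SD, n = 2), which is less clear against the spread of the replicates.

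Intermediate sites were 35.0% of the Sox17EK sites and 37.9% of the Oct4 sites, and differed in kind. Of the 3450 intermediate Sox17EK sites, 3047 (88.3%) had Oct4 peaks of both replicates at hand, 384 of replicate A alone and 19 of replicate B alone. They were thus mostly sites where both Oct4 libraries had a peak but the rules for a joint site were not met. Only 1209 of the 3450 (35.0%) overlapped an Oct4 site. The others overlapped no pair of Oct4 A and B peaks that met the 200 bp rule. Of the 12613 intermediate Oct4 sites, 2067 (16.4%) had Sox17EK peaks of both replicates, 8068 (64.0%) of replicate A alone and 2478 (19.6%) of replicate B alone. These were mostly sites with Sox17EK in a single replicate. Median Oct4 scores of intermediate sites, 357 and 154, fell between those of joint and Oct4-alone sites.

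Sox17EK-alone sites were few and weak. There were 119, or 1.21% of the Sox17EK sites (1.00 to 1.44), with median Sox17EK scores of 60.0 and 71.2 against 191 and 120 at joint sites. The number depends on list length and on the replicates. It was 512 with the lists cut to equal length and 12 with peaks under a score of 100 left out. It was 19014 without Sox17EK replicate A, 3125 without Sox17EK replicate B and 503 without Oct4 replicate A. An Oct4 peak of some other line or of F9 cells lay at 53 of the 119 (44.5%).

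The strongest Sox17EK-alone site, at chr2:135977957-135978342, had Sox17EK scores of 176 and 164. Every other Sox library of ES cells had a peak there, led by Sox2KE with 1084 and 932 and Sox2 with 486 and 222. Oct4 of the Sox2KE line scored 94.5 and 77.4 at this site. The second, at chr1:142809331-142809713, scored 101 and 112 for Sox17EK and had Oct4 scores of 515 and 77.0 in the Sox2 line. The site at chr18:39937360-39937765 scored 77.4 and 136 for Sox17EK, and none of the other 16 lists had a peak. The site at chr4:123276155-123276587 scored 70.8 and 182, with Sox2KE at 90.8 and 144. At chr2:98506307-98507583 the scores were 61.5 and 230 in peaks of 1277 and 1208 bp, wide for Sox17EK, and Sox17 of F9 cells with RA scored 366 there.

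Oct4-alone sites numbered 14365, or 43.2% of the Oct4 sites (42.6 to 43.7). Their number was 4672 at equal list length, 22433 without Sox17EK replicate A, 22452 without Oct4 replicate A and 39970 without Oct4 replicate B. The strongest by rank, at chr12:57620451-57622949, had Oct4 scores of 2038 and 921, and Sox2 scored 233 and 263 there. The site at chr6:86246725-86247584, with Oct4 scores of 2054 and 879, had no peak in any Sox library of ES cells and was 818 and 783 bp wide. The sites at chr6:86475003-86477697, chr13:108709301-108710680 and chr8:123606039-123609566 scored 1781 and 1016, 1585 and 1026, and 1743 and 915. All 5 sites had an Oct4 peak in each of the 5 Oct4 libraries of other ES lines, and 4 of the 5 had a peak of Sox2KE replicate B. At named sites an overlapping peak counts too. Over all Oct4-alone sites, Sox2KE replicate B had a peak at 55.2% by overlap and 42.4% by midpoint. Among those in Oct4 bin 1 it had one by midpoint at 63.2%.

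The libraries of other proteins and lines, which took no part in choosing the sites, had peaks at a larger share of joint than of alone sites in all 11 ES libraries. At joint sites Sox2 had a peak at 67.3% and 62.4% (replicates A and B), Sox2KE at 39.0% and 46.6%, and Sox17 at 25.7% and 15.9%. At Sox17EK-alone sites the values were 12.6% and 10.1%, 16.0% and 26.1%, and 0.840% and 0.840%. Intermediate Sox17EK sites were nearer to joint sites, at 54.4% and 52.0%, 39.5% and 36.7%, and 22.2% and 16.1%. Counted by overlap, intermediate sites exceeded joint sites for Sox2KE (52.5% and 74.8% against 42.9% and 56.5%) and Sox17 (42.0% and 26.0% against 29.3% and 18.2%). For Sox2 they did not (67.3% and 63.7% against 71.6% and 65.5%). The mean over the 6 libraries was 42.8 ± 20.1% at joint sites and 11.1 ± 9.60% at Sox17EK-alone sites (SD, n = 6). The difference of 31.8 points was positive in 6 of 6 libraries, with an exact two-sided sign-flip permutation p of 0.0312, the smallest that 6 libraries allow, and 0.0952 after Benjamini-Hochberg adjustment over 4 tests. No adjusted p of the 4 tests could fall below 0.0625 at these numbers of libraries, so the adjusted values cannot pass a threshold of 0.05 and say nothing on the size of the difference. With peaks under a score of 100 left out it was 9.56 points (exact p = 0.156), over 12 Sox17EK-alone sites.

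Oct4 of the other ES lines was likewise found at 67.1 ± 16.1% of joint sites and 45.0 ± 13.4% of Oct4-alone sites (SD, n = 5 libraries). The difference of 22.1 points was positive in 5 of 5 libraries, with an exact two-sided sign-flip permutation p of 0.0625, the smallest possible, and 0.0952 adjusted. It did not hold at matched rank. Within bins of Oct4 rank, a matching that was added once the results were known, the mean difference was 0.145 ± 9.08 points (exact permutation p = 1) and was positive in 3 of 5 libraries. It was 5.97 points at equal list length and 4.43 points in the upper 5th of Oct4 ranks.

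**Figure D4:**
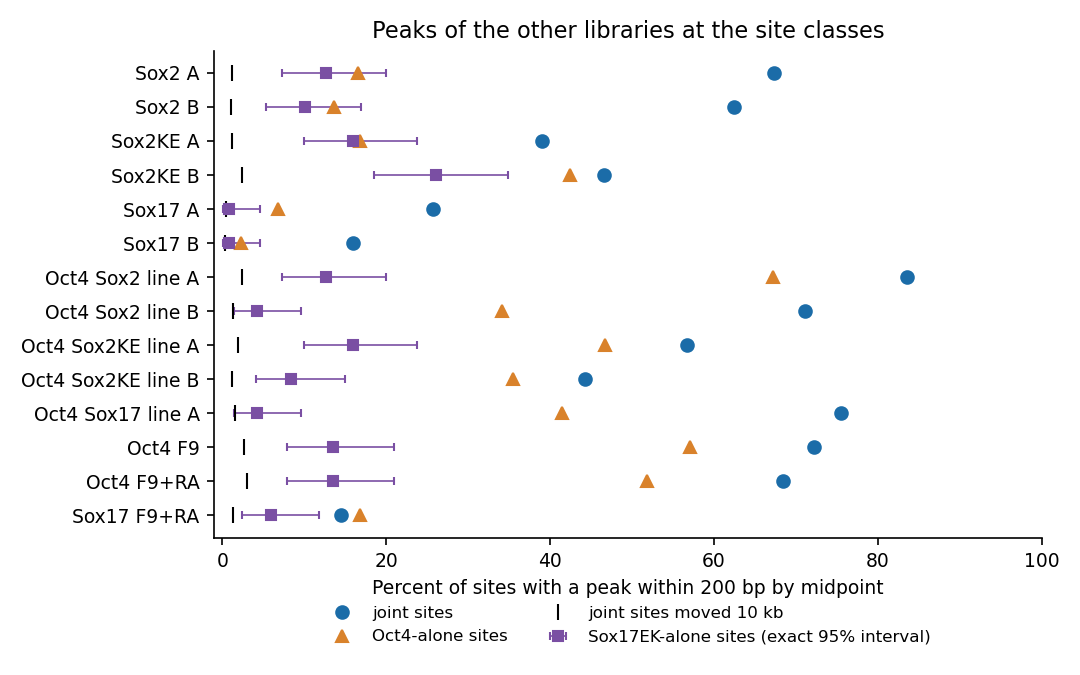
Percent of joint (circles), Oct4-alone (triangles) and Sox17EK-alone sites (squares, exact 95% intervals) with a peak of each of 14 other libraries within 200 bp (x axis), beside joint sites moved 10 kb (black ticks). Circles lie to the right of squares in every library, and to the right of triangles in every library but Sox17 of F9 cells with RA.

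The lines differed in the matched comparison. Within Oct4 rank bins, joint minus Oct4-alone was 4.61 and 10.2 points for Oct4 of the Sox2 line, −6.79 and −11.8 points for Oct4 of the Sox2KE line and 4.48 points for the 1 library of the Sox17 line. Both libraries of the Sox2 line were thus above 0 and both of the Sox2KE line below it in this mean over bins. In bins 1 and 10, though, Oct4 of the Sox2KE line was higher at joint sites, by 12.9 and 1.93 points and by 8.95 and 3.94 points. The other Sox proteins, compared in the same way after the data were seen, gave 35.3 and 34.7 points for Sox2, 14.2 and −6.63 for Sox2KE and 6.75 and 6.69 for Sox17. Their mean was 15.2 ± 16.8 points (SD, n = 6), positive in 5 of 6 libraries, with an exact two-sided permutation p of 0.0625. Over all ranks it was 26.4 ± 18.5 points, positive in 6 of 6 libraries, with an exact permutation p of 0.0312, not adjusted. Sox2 thus lay at joint sites more often than at Oct4-alone sites of like Oct4 rank, in both replicates and all 10 bins.

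**Figure D5:**
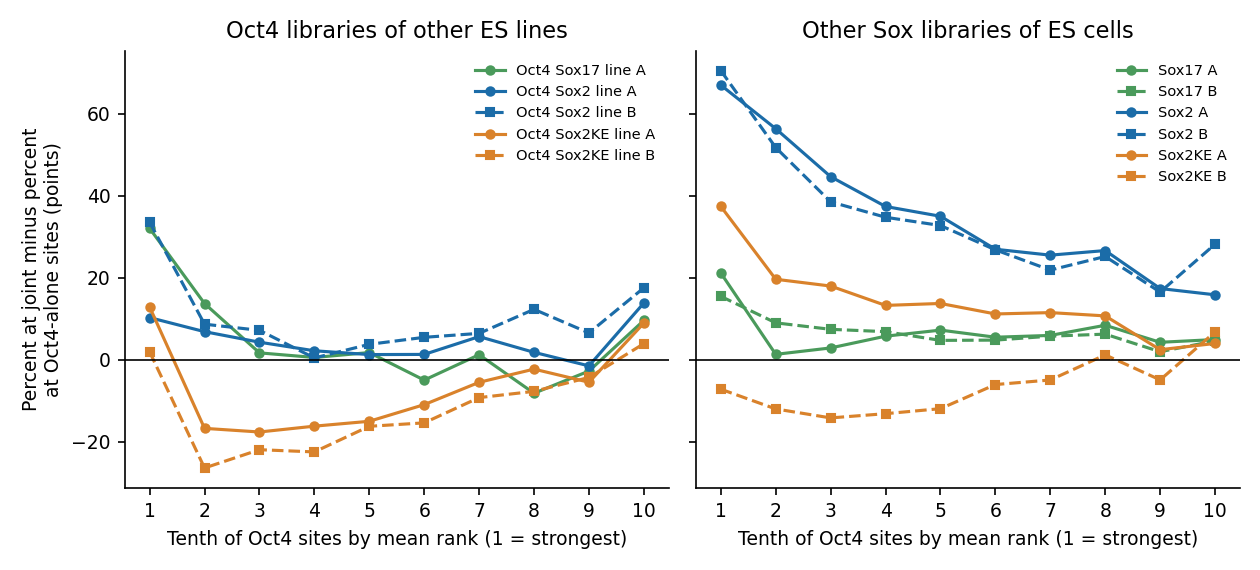
Percent of joint sites minus percent of Oct4-alone sites with a peak (y axis, percentage points) in each bin of Oct4 rank (x axis, 1 the strongest), for Oct4 libraries of other ES lines (left) and other Sox libraries (right). Sox2 (blue, right) is above 0 in every bin, and Oct4 of the Sox2KE line (orange, left) is below 0 in bins 2 to 9.

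Oct4 of the same line lay at a larger mean share of the Sox17EK sites than Oct4 of other lines, but the difference did not pass the test before adjustment. Lists were cut to their 32848 strongest peaks. The Oct4 libraries of the Sox17EK line had a peak at 65.3% and 72.3% of the Sox17EK sites. Those of the Sox2 line had 57.4% and 65.9%, those of the Sox2KE line 43.1% and 42.3%, and that of the Sox17 line 64.7%. The means were 68.8 ± 4.97% (SD, n = 2) and 54.7 ± 11.4% (SD, n = 5), and the exact two-sided permutation p was 0.143 before and after adjustment, where 0.0476 is the smallest possible. Values of the Sox17EK line overlapped those of the Sox2 line and stood above those of the Sox2KE line.

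The reverse question, whether Sox17EK lay at more Oct4 sites of its line than other Sox proteins did, gave a small difference that did not pass the test before adjustment. Among the 5836 strongest peaks of each list, Sox17EK covered 11.5% and 9.50% of the Oct4 sites, Sox2 8.76% and 9.27%, Sox17 8.04% and 6.60%, and Sox2KE 5.57% and 5.78%. The means were 10.5 ± 1.43% (SD, n = 2) and 7.33 ± 1.57% (SD, n = 6), with an exact two-sided permutation p of 0.0714 and 0.0952 adjusted. Both Sox17EK values were above all 6 others, and Sox2 was nearest. Whole lists gave 7.88 points (exact p = 0.607) in place of 3.18, and equal length of the lists of the line 7.05 points.

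With whole lists, an Oct4 peak lay at 98.8% of Sox17EK sites in the Sox17EK line, 93.9% in the Sox2 line, 80.9% in the 1 library of the Sox17 line and 67.8% in the Sox2KE line. These shares differ in list length and number of libraries and carry no test. Any of the 9 Oct4 lists of the series had a peak at 9805 of the 9871 Sox17EK sites (99.3%).

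Most joint sites were shared with Sox2. Both Sox2 libraries had a peak at 3787 of the 6302 joint sites (60.1%). Counting a protein as present with a peak in either replicate, 1708 joint sites (27.1%) had Sox2, Sox2KE and Sox17, 1630 (25.9%) Sox2 and Sox2KE without Sox17, and 1370 (21.7%) Sox2 alone. Sox2KE alone was at 248 sites (3.94%) and Sox17 alone at 61 (0.968%), and 980 sites (15.6%) had none of the 3 proteins. All 5 Oct4 libraries of other ES lines had a peak at 2649 joint sites (42.0%) and none of them at 218 (3.46%). All 11 other ES libraries had one at 656 joint sites (10.4%).

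A group of 192 joint sites (3.05%) had no peak in any of the 11 other ES libraries. Their ranks were weaker than those of all joint sites, with a median percentile (0 the strongest) of 39.5 against 23.0 for Sox17EK and 44.8 against 15.3 for Oct4. Oct4 of F9 cells had a peak at 58 of them (30.2%) and Oct4 of F9 cells with RA at 52 (27.1%), against 82.1% and 74.6% of all joint sites, counting an overlapping peak too. Some were strong all the same. At chr1:95542614-95543238 the Sox17EK scores were 431 and 427 and the Oct4 scores 1143 and 1032, with no peak in any of the other 14 lists. At chr2:178000612-178001699 they were 812 and 321 for Sox17EK and 1252 and 591 for Oct4, again with no peak elsewhere. Others were chr4:125413757-125414622, with Sox17EK scores of 766 and 264, and chr8:64514861-64515629, with 361 and 281. These 4 sites were singled out after their values were seen.

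The other lines with both replicates, treated by the same rules, had lower joint shares of Sox sites. In the Sox2 line 8397 of 16189 Sox2 sites (51.9%) were joint and 577 (3.56%) were alone, and in the Sox2KE line 11000 of 22864 (48.1%) were joint and 4257 (18.6%) alone. Of the Oct4 sites of those lines, 37.8% and 43.3% were joint, above the 18.9% of the Sox17EK line, and 36.0% and 5.50% were Oct4-alone. Site numbers and list lengths differ between the lines, with 1 set of lists each, and the differences carry no test.

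Joint sites were spread over all numbered chromosomes and X. The joint share of Sox17EK sites ran from 54.8% on chromosome 8 (663 Sox17EK sites) to 82.9% on X (152), and that of Oct4 sites from 16.0% on chromosome 7 to 22.1% on chromosomes 1 and 14. Chained at gaps of up to 10 kb, 5327 joint sites stood singly and 975 (15.5%) fell in clusters, with 421 clusters of 2, 35 of 3 and 7 of 4 sites. Oct4-alone sites had another of their class within 10 kb in 27.7% of cases. The classes differ in size, with 14365 Oct4-alone and 6302 joint sites, so these shares were not compared. The tightest cluster of 4 joint sites spanned 6758 bp at chr2:172124753-172131510.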

How the data were processed

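The authors deposited a headerless peak list of 5 columns for each of 18 of the 20 ChIP-seq samples. Mock libraries, 2 in number, did not enter. The deposited start and end are positions in bp (a unit other than a measurement), in mm9 per the submitters' processing notes, read as counting from 0 and printed counting from 1. The deposited score is the authors' value per peak. It was read as 10 times the negative log10 of p from the MACS prefix of the peak names and the lowest value of about 50, and no label states the scale. For the aligner and for the caller's version, settings and control, nothing was given in the sources used here, and read depth was unknown. No library totals or summits were used, so midpoints stood for summits. No mm9 sequence or annotation was given, so positions replace gene names and sequences.

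Peaks were matched as mutual nearest midpoints within 200 bp, with moved sites (10 kb) as background and exact (Clopper-Pearson) 95% intervals over sites. Rank bins use the mean percentile rank of both replicates. Presence in another library means a peak midpoint within 200 bp in the percentages by library, and for absence from named sites and in the counts by protein also no overlapping interval. Exact permutation tests over libraries were adjusted over 4 tests by the Benjamini-Hochberg method. Libraries of 1 protein come from 1 line and are not independent, and no label ties the replicates to separate cultures. The p-values therefore measure only the spread among these libraries, possibly a technical one. The matching was tested on 5000 simulated peaks made from Sox17EK replicate A, where true joint shares of 10, 40 and 80% came back as 10, 40 and 80%. The simulated partners were placed within 200 bp and unrelated peaks far away. The simulation therefore checks the code only and says nothing on accuracy in the real lists.

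The sites named were the 10 joint sites with the best mean percentile over the 4 libraries, the 5 best alone sites of each factor, and the 3 joint sites per direction with the most unequal ranks among those in bin 1 of the higher factor. The members, classes and alternatives were chosen with earlier results of these data known. Alternatives were another match distance, overlap, equal list length, a score of at least 100, coarser bins, whole lists and each replicate left out. Software was SciPy 1.17.1, pandas 2.3.3 and NumPy 2.4.6 under Python 3.11.15.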

Additional observations from a re-analysis of the deposited data

Results flagged for a closer look

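As an unweighted mean over bins of Oct4 rank, joint minus Oct4-alone sites with an Oct4 peak came to 7.40 points in the Sox2 line (4.61 and 10.2) and −9.28 points in the Sox2KE line (−6.79 and −11.8). The lines differ by 16.7 points, and this was singled out because both libraries of the Sox2 line lay above 0 and both of the Sox2KE line below. In bin 1, which holds 2038 of the 6302 joint sites, the Sox2KE line was above 0 (12.9 and 1.93 points), as it was in bin 10 (8.95 and 3.94 points) and over all Oct4 sites without matching on rank (57.5% against 46.7%, and 44.7% against 35.5%). The difference between the lines was not tested.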

How the results depend on the processing

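Of 155 alternative values, 89 stayed within the spread or on the same side of the threshold, 62 moved and 3 lost their call. Another 1 turned sign, the Sox17EK rank difference of −3.47 points at a score of at least 100. The 89 include all alternatives of the 4 planned tests. Their adjusted p could not fall below 0.05 at any setting, so those entries show no stability. In the order joint percent of Sox17EK sites, joint percent of Oct4 sites, difference between Oct4 rank bins 1 and 10 (points), median distance (bp) and Oct4 width ratio, the main values of 63.8, 18.9, 59.6, 47.5 and 1.22 became 44.4, 13.2, 37.1, 35.8 and 1.17 at 100 bp, 83.3, 23.5, 78.2, 71 and 1.33 at 500 bp, and 90.8, 24.6, 83.2, 78.5 and 1.37 by overlap. With 5 rank bins in place of 10, the Oct4 difference was 48.6 points. Equal list length gave 57.7% and 28.8%, 512 Sox17EK-alone and 4672 Oct4-alone sites, and a width ratio of 0.908. A score of at least 100 gave 65.7% and 16.3%, 12 Sox17EK-alone sites, and width ratios of 1.01 for Oct4 and 1.52 for Sox17EK.

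Leaving out 1 library makes every peak of the other replicate a site. Then the joint share of Sox17EK sites ran from 22.3% to 76.2%, that of Oct4 sites from 10.2% to 41.3%, Sox17EK-alone sites from 138 to 19014 and Oct4-alone sites from 16843 to 39970. The rank differences ran from 42.9 to 63.6 points for Oct4 and from 4.09 to 50.4 for Sox17EK, the distance from 53.5 to 61.2 bp and the Oct4 width ratio from 1.13 to 1.36. The cause of these changes was not tested.

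Since no adjusted p of the 4 planned tests could fall below 0.0625, their adjusted values carry no information on stability. With 1 library of the line left out, the differences ran from 21.2 to 36.5 points for other Sox proteins at joint against Sox17EK-alone sites, from 14.3 to 35.3 for Oct4 of other lines, from 4.10 to 17.6 for own against other Oct4 lines and from 1.06 to 4.19 for Sox17EK against other Sox proteins. The replicate block, with letters A and B as the block, gave 14.2 points (exact p = 0.167) for Oct4 at Sox17EK sites and 3.18 points (exact p = 0.125) for Sox17EK at Oct4 sites. The letters were not shown to pair the samples: with 2 pairs, the differences between A and B correlated at 0.176 across joint sites. The added comparison of other Sox proteins at joint and Oct4-alone sites lost its unadjusted call at equal length (24.3 points), at a score of at least 100 (26.5) and within rank bins (15.2), each with an exact p of 0.0625. The comparison of joint with Sox17EK-alone sites in the upper 5th of ranks was not run, as no Sox17EK-alone site lies there, and in the lowest 5th it gave 21.6 points (exact p = 0.0312). Unknown read depth limits any statement on absent peaks.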
